A study of Equus caballus with 14 samples.

Results

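CALCB and BCHE are a pair of genes of peripheral nerve signalling that were measured in the mediastinal lymph nodes of horses with and without recurrent airway obstruction (RAO). They are 2 of the 599 gene symbols that could be assigned to the arrays. Both were chosen by the difference of their array signals between RAO-affected and control animals in these same horses, CALCB downward and BCHE upward, so their differences are described here without a test. Each gene was represented by 1 probe out of 43603, A_69_P000811 for CALCB and A_69_P001196 for BCHE, and each probe had 1 spot per array.

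Total RNA from pieces of node that held both cortex and medulla was hybridized to 1-colour arrays, with 1 mixed-breed horse on each of 14 arrays. The 7 horses of the RAO group carry the disease status heaves in the labels, another name for RAO, and the 7 horses of the control group are called healthy. Per the methods of the study, the horses, which were mares and geldings, were first kept on pasture and then stabled on dusty hay before the nodes were taken. The RAO-affected horses were on average older, and the split of the sexes between the groups was not given. The age, sex and RNA integrity of each horse were not given in the sources used here, so their part in the results was not tested. The disease had arisen naturally in these animals, and all of them came from 1 research herd. In whole tissue, fewer cells of a type and less RNA per cell cannot be told apart.

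CALCB encodes a form of calcitonin gene-related peptide (CGRP), a neuropeptide that sensory nerve endings release and that widens blood vessels and acts on immune cells. The peptide signals through a receptor made of CALCRL and RAMP1. A second gene, CALCA, gives rise by alternative splicing to the hormone calcitonin and to the other form of CGRP. BCHE encodes butyrylcholinesterase, a secreted enzyme that hydrolyses choline esters, among them acetylcholine, the transmitter with which vagal nerves narrow the airways. Airways and lymphoid tissue are both supplied by nerve fibres that contain CGRP.

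The sequences available for CALCB are those of the primers that the study designed for RT-PCR. They carry the same transcript accession as the array probe, but were not compared with its sequence. They are printed 5′ to 3′ in lower case, and no base is capitalized.
CALCB forward primer: tgaaggcatatgtgcagagg
CALCB reverse primer: atctcttctgggcagtgagg
Each primer is 20 bases long. The RT-PCR values themselves were not analysed here, but the study reported a smaller decrease of CALCB by RT-PCR than on its arrays. In the gene order of the horse assembly TB-T2T, CALCB (synonym CGRP-II) lay beside INSC and was separated from CALCA by 2 protein-coding genes known only by locus names. BCHE lay between SLITRK3 and ZBBX in that assembly. Per the study's methods, the array sequences came from horse transcript databases and from an earlier assembly of the genome, so no TB-T2T coordinates are printed.

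Signal is given as log2 of the background-subtracted intensity after quantile normalization, where 1 unit is a 2-fold difference. For CALCB the control horses measured 8.81 in horse 1, 7.70 in horse 3, 5.58 in horse 5, 7.56 in horse 7, 8.50 in horse 9, 6.12 in horse 11 and 8.96 in horse 13. The RAO-affected horses measured 5.96 in horse 2, 5.33 in horse 4, 6.41 in horse 6, 5.57 in horse 8, 6.02 in horse 10, 6.11 in horse 12 and 5.22 in horse 14. Thus 5 control horses lay above the whole RAO range, whereas control horses 5 and 11 lay inside it, and 3 RAO-affected horses lay below every control horse. The means were 7.60 ± 1.32 (SD, n = 7) in control and 5.80 ± 0.44 (SD, n = 7) in RAO-affected horses, a 3.49-fold lower signal (log2 difference -1.80, SE 0.49), and the difference of the medians was -1.74.

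In BCHE the order of the groups was the opposite. The control horses measured 7.89 in horse 1, 5.12 in horse 3, 9.01 in horse 5, 8.16 in horse 7, 6.35 in horse 9, 6.49 in horse 11 and 5.55 in horse 13. The RAO-affected horses measured 8.66 in horse 2, 7.88 in horse 4, 9.45 in horse 6, 9.70 in horse 8, 9.13 in horse 10, 7.95 in horse 12 and 9.56 in horse 14. RAO-affected horses 6, 8, 10 and 14 exceeded all control horses, and of the control horses, 4 lay below the RAO range and 3 (horses 1, 5 and 7) inside it. The means were 6.94 ± 1.44 (SD, n = 7) in control and 8.91 ± 0.76 (SD, n = 7) in RAO-affected horses, a 3.91-fold higher signal (log2 difference 1.97, SE 0.58). The difference of the medians was wider, at 2.64 or 6.25-fold.

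**Figure D1:**
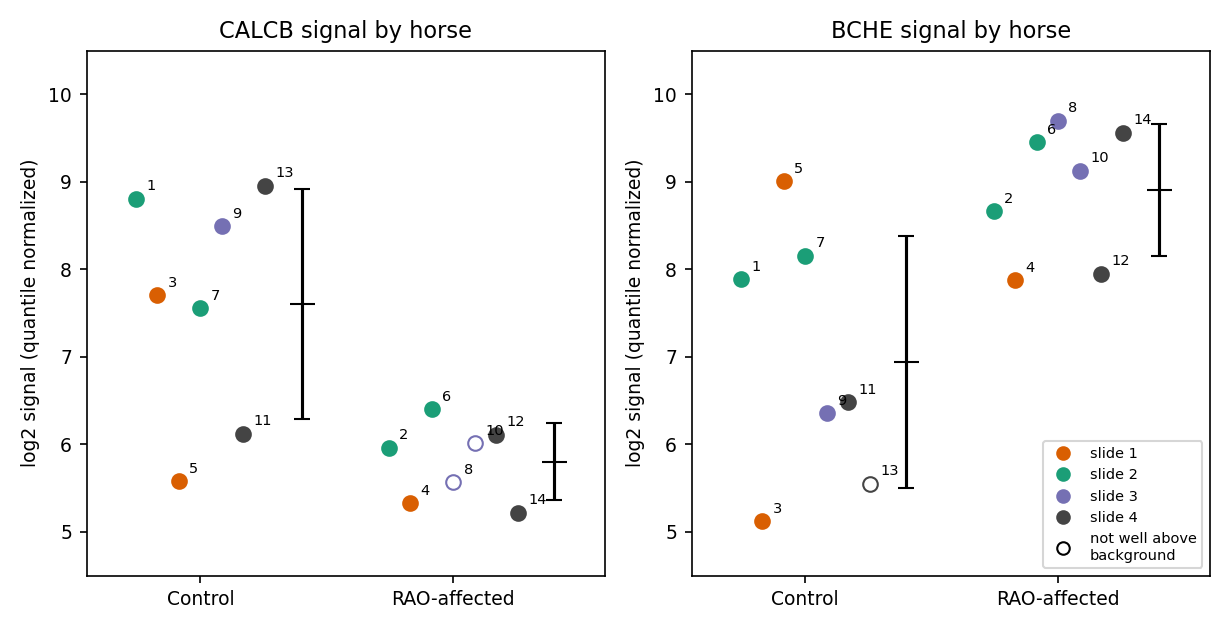
Log2 signal of CALCB (left) and BCHE (right) after quantile normalization for each horse, numbered as in the labels, with colours for the 4 slides, open symbols for signals not well above background, and bars for the mean and SD of each group (n = 7). Control horse 5 sits among the RAO-affected horses in both panels, at 5.58 for CALCB and 9.01 for BCHE.

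Control horse 5 had both the lowest CALCB and the highest BCHE signal of its group and lay inside the RAO range for each gene. Neither gene had any horse that stood apart from its group by Dixon's ratio. The control horses varied widely in both genes. Their SD for CALCB was larger than that of 94.4% of the probes tested, and their SD for BCHE larger than that of 95.7%. Among RAO-affected horses the corresponding shares were 45.4% for CALCB and 75.6% for BCHE. The variance in control horses was 9.01 times that in RAO-affected horses for CALCB and 3.62 times for BCHE, values that are given without a test. The part of low signal, described below, in these ratios was not tested.

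These genes lie in the lower part of the array's signal range. Before normalization, CALCB intensities ran from 52.5 to 477.1 in control horses and from 39.6 to 86.9 in RAO-affected horses. Those of BCHE ran from 35.2 to 764.4 in control and from 288.0 to 883.1 in RAO-affected horses. CALCB was well above background, a mark that the scanner software sets for each spot, in 7 of 7 control and 5 of 7 RAO-affected horses, the exceptions being RAO-affected horses 8 and 10. BCHE was well above background in 6 of 7 control horses, the exception being horse 13, and in 7 of 7 RAO-affected horses. No spot of either probe was saturated. The CALCB signals of RAO-affected horses therefore lay near the lower limit of detection, and so did the lowest BCHE signals of control horses.

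The size of both differences changed with the background correction. With normexp correction, which keeps a positive offset, the difference was -0.95 for CALCB (1.93-fold) and 1.27 for BCHE (2.40-fold). With 75th percentile scaling in place of quantile normalization, the values were -1.72 and 1.96. When single horses were left out, CALCB ranged from -2.14 to -1.58 and BCHE from 1.66 to 2.31.

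**Figure D2:**
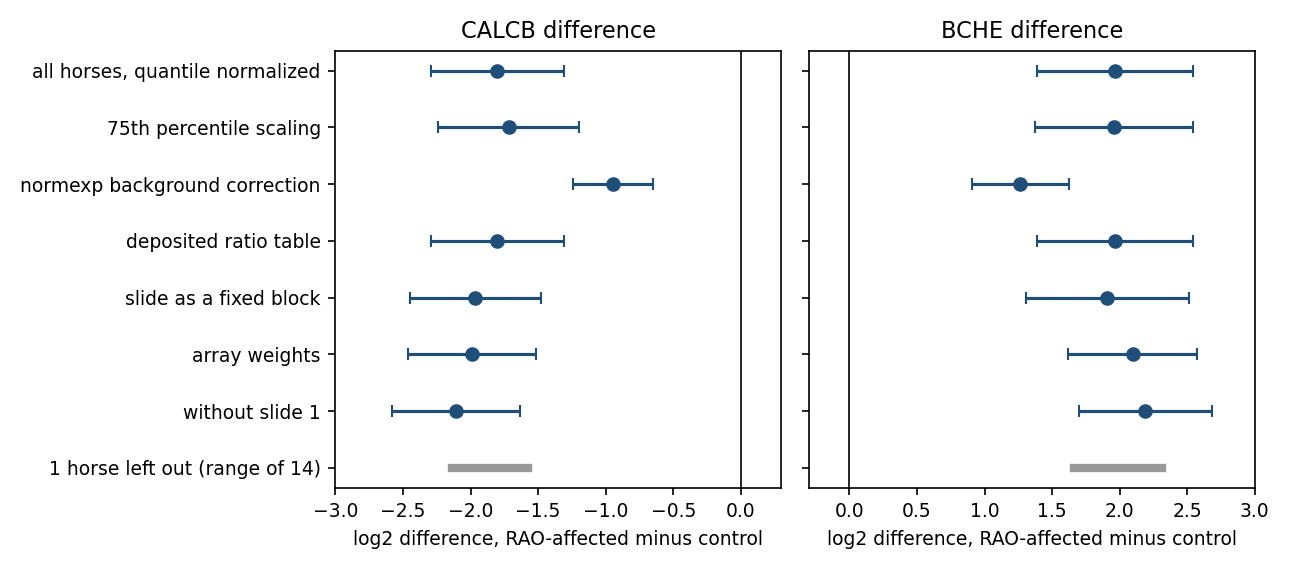
Log2 difference of RAO-affected minus control horses (x axis) for CALCB (left) and BCHE (right) under each setting (y axis), with points for the difference, bars for its SE, and a grey band for the range over 14 fits that each left out 1 horse. Every CALCB value lies below 0 and every BCHE value above 0, and normexp gives the smallest sizes (-0.95 and 1.27).

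Each of the 4 slides held both groups, with too few horses for a test within a slide. The CALCB differences within slides 1, 2, 3 and 4 were -1.32, -1.998, -2.70 and -1.87. Those of BCHE were 0.81, 1.04, 3.06 and 2.74, so the direction was the same on each slide for both genes, while the BCHE difference on slides 3 and 4 was larger than on slides 1 and 2. With slide as a fixed block the differences were -1.97 for CALCB and 1.91 for BCHE. Slide 1, which was scanned apart from the others, carried RAO-affected horse 4 and control horses 3 and 5. Its arrays correlated at 0.898 to 0.945 with those of the other slides, against 0.947 to 0.988 among the latter. Without slide 1 the CALCB difference was -2.11 and the BCHE difference 2.19.

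The 38727 probes tested had to be well above background on 4 or more arrays. Over these probes limma called none after Benjamini-Hochberg adjustment (0, or 0%). An unpaired form of the test that the methods name called none after adjustment either. The paired form that the methods name was not run, because the pairs were not given in the sources used here. At an unadjusted p under 0.05 limma called 2177 (5.62%), and with a difference of at least 2-fold as well, 144 (0.372%) were lower and 426 (1.1%) higher in RAO-affected horses. Of the probes tested, 275 (0.71%) were at least 2-fold lower in RAO-affected horses, CALCB among them, and 683 (1.76%) were at least 2-fold higher, BCHE among them. CALCB held place 20 from the most negative difference and BCHE place 71 from the most positive one. As these differences chose the genes, nothing is read from their places.

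CALCA is the nearest relative of CALCB and the only other gene of an 11-gene list of CGRP peptides, related peptides and their receptors that could be assigned to probes. The receptor genes CALCRL and RAMP1 were not analysed here. CALCA had 6 probes from 2 transcript accessions, and single horses set much of the differences of their means. The single probe of one accession measured 5.64 ± 0.14 (SD, n = 7) in control and 5.10 ± 0.92 (SD, n = 7) in RAO-affected horses, a difference of -0.54. Without RAO-affected horse 10, at 3.06, it was -0.20, as the other 6 lay between 5.07 and 5.72. The spot of horse 10 was not well above background. On this probe 5 control and 4 RAO-affected horses were well above it. The 5 probes of the other accession gave differences of their means of 0.47 to 1.05, but without RAO-affected horse 2 these were -0.13 to 0.58. The median was lower in RAO-affected than in control horses on 3 of these 5 probes. No CALCA probe passed in limma after adjustment over all probes tested (adjusted p = 0.904 for the single probe and 0.934 to 0.988 for the other 5).

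Within that accession the horses differed far more than the groups. All 5 probes were between 8.56 and 8.85 in RAO-affected horse 2, the highest horse on 4 of them, and were well above background there. RAO-affected horse 14 reached 9.95 on 1 probe, while the median of its 5 probes was 6.20. In control horses the medians of the 5 probes ran from 3.61 in horse 11 to 6.21 in horse 9. RAO-affected horse 2 thus had high CALCA signal at a CALCB signal of 5.96, while control horses 1 and 13, which had the highest CALCB signals, had median CALCA signals of 4.33 and 4.16. Most CALCA signals lay close to background, with 3 or 4 horses of each group well above it on each of these 5 probes. Cross-hybridization between CALCA and CALCB was not tested.

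**Figure D3:**
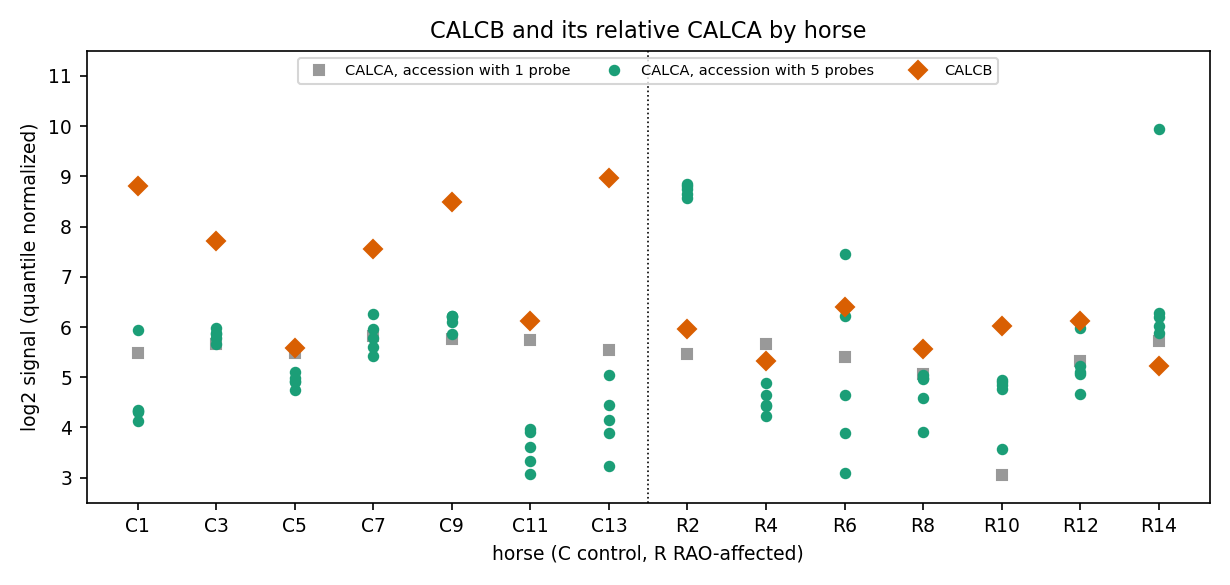
Log2 signal after quantile normalization (y axis) of CALCB (diamonds), of the CALCA probe of one accession (grey squares) and of the 5 CALCA probes of the other accession (green circles) in each horse (x axis). RAO-affected horse 2 stands at 8.56 to 8.85 on the 5 CALCA probes with CALCB at 5.96.

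Of 31 genes for the synthesis, transport, breakdown and receptors of acetylcholine, BCHE alone could be assigned to a probe, so acetylcholinesterase and the muscarinic and nicotinic receptors were not analysed here. In a list of 36 genes of other neuropeptides, catecholamines and neurotrophins, 2 were located. BDNF, a neurotrophin, differed by 0.11 (SE 0.43) on its brightest probe and by -0.43 to 0.41 over its 5 probes, each well above background in 4 to 7 of 14 horses. DBH, which makes noradrenaline in sympathetic nerves, was well above background in 2 control and 1 RAO-affected horses and was not tested. Over all probes tested the median difference was -0.03 and the median absolute difference 0.18.

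Of 14 neuron and axon markers only UCHL1, a ubiquitin hydrolase abundant in neurons, was located. Its 5 probes were well above background in all 14 horses, with differences of -0.03 to 0.03 (SE 0.21 to 0.26). The normalized signal of its brightest probe, on the linear scale, ran from 388 to 721 in control and from 405 to 857 in RAO-affected horses. Of the Schwann cell markers, PMP22, a protein of peripheral myelin, had 6 probes. Its brightest probe differed by 1.099 and the other 5 by 0.26 to 0.44. The normalized signal of the brightest probe ran from 515 to 1950 in control and from 869 to 10227 in RAO-affected horses. The value of 10227 was that of RAO-affected horse 14. The UCHL1 means of the groups thus lay within 1 SE of each other. The part of nerve content in the CALCB difference was not tested. UCHL1 is not restricted to sensory neurons, and their defining markers, such as the channel gene TRPV1, were not analysed here.

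The means of markers of other cell types differed by varying amounts between the groups, some by little. The macrophage markers CD163 and CD14, a haemoglobin scavenger receptor and a co-receptor for bacterial lipopolysaccharide, were higher in RAO-affected horses by 2.61 and 1.11, while CD68 differed by 0.04 (CD14 was saturated on 1 array and CD68 on 2). Summed over these 3 of 7 listed macrophage markers, the normalized signal on the linear scale ran from 22271 to 124265 in control and from 33663 to 114049 in RAO-affected horses. The endothelial markers SELP, SELE and PECAM1 differed by 1.64, 1.46 and 0.45, and their sum (3 of 7) ran from 8868 to 33042 and from 16728 to 89338. The SELE value rests on RAO-affected horse 12, whose spot was saturated, since it was 0.49 without that horse and -0.07 to 0.48 on the other 4 SELE probes. The same horse gave the upper end of the endothelial sum, 89338, which contains its saturated SELE spot. LUM and DCN, matrix proteoglycans of stroma, differed by 1.76 and 0.19, with a sum (2 of 9) of 16053 to 65635 and of 20042 to 70786. The DCN probe was saturated on 5 arrays. The brightest LUM probe, which is not in the sum, differed by 1.51 and was saturated on 3 arrays. The 5 LUM probes without saturated spots, of which 1 is in the sum, differed by 1.74 to 1.79. The T cell markers CD2, CD28 and IL7R differed by -0.43, -0.41 and 0.09, and their sum (3 of 10) ran from 12284 to 26877 and from 9931 to 39902.
The remaining markers were fewer. Mast cell FCER1A and TPSB2 differed by 1.04 and 0.77 (2 of 7, sums of 2051 to 18435 and of 4071 to 23340). SFTPA1 of lung epithelium differed by 0.54 (1 of 8, 296 to 4379 and 391 to 18924), and TAGLN of smooth muscle by -0.01 (1 of 5, 1617 to 13973 and 1571 to 24799). CD2, CD28 and IL7R were well above background on all 14 arrays, so the markers of lymphocytes that could be located were present. None of the 9 B cell markers was located, and neither were those of neutrophils, eosinophils and adipocytes. After adjustment over all probes no marker passed in limma. The part of these cells in the differences of CALCB and BCHE was not tested.

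Because the groups differ in both genes by choice, the relation of CALCB to BCHE was examined within each group. In control horses Pearson's r was -0.44 (two-sided exact permutation p = 0.321, adjusted p = 0.642 over 2 relations) and Spearman's coefficient was -0.57 (exact permutation p = 0.2, adjusted p = 0.4). Without horses 5 and 11, the farthest from the median of CALCB, r was -0.10, and without horse 5 alone it was -0.02, so the negative value rests on that horse. In RAO-affected horses r was -0.016 (exact permutation p = 0.973, adjusted p = 0.973) and Spearman's coefficient -0.14 (exact permutation p = 0.783, adjusted p = 0.783). Without horses 4 and 14 that r was -0.26. A relation between the genes was not detectable within either group of 7 horses.

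**Figure D4:**
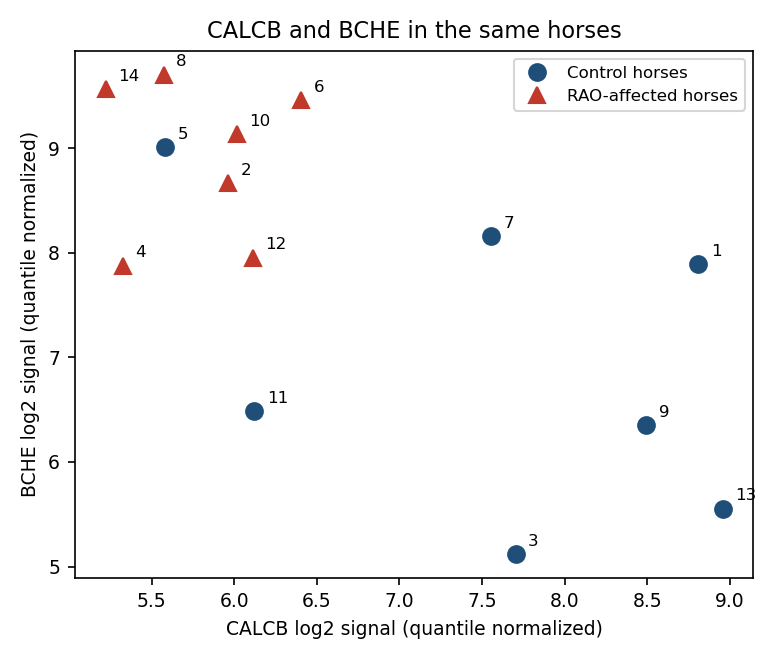
BCHE against CALCB (log2 signal after quantile normalization) for the control horses (circles) and the RAO-affected horses (triangles), numbered as in the labels. Within the groups r is -0.44 and -0.016, and control horse 5 lies among the RAO-affected horses.

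With each group's mean subtracted, r over all 14 horses was -0.37, given as a description. It was -0.17 without slide 1 and -0.02 without control horse 5. With the slide means removed as well it was -0.70. The sign was thus the same, while the size turned on the slides and on that horse.

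Genes whose signal followed CALCB or BCHE from horse to horse were sought among 531 named and tested genes, as the correlation over 14 horses after each group's mean was subtracted. These values are descriptions, since the genes share the same arrays and the extremes of many were picked. The median over all these genes was -0.06 for CALCB and 0.06 for BCHE. CALCB was most alike to TAB3 (r = 0.65), an adaptor of the kinase TAK1, followed by LYRM2 (0.59), a mitochondrial protein, and TENT5A (0.59), a poly(A) polymerase. EEF1A1 and B2M had r = 0.59 too, but both were saturated on all 14 arrays. Within control horses r with CALCB was 0.76 for TAB3, 0.57 for LYRM2 and 0.75 for TENT5A. Within RAO-affected horses it was 0.66, 0.84 and 0.18. The genes most opposed to CALCB were HK2 (-0.72), a hexokinase, GSDME (-0.69), a pore-forming gasdermin, and ANG (-0.69), a ribonuclease. The arrays of slide 1 gave the highest HK2 signals of all, 9.64 and 10.92 in control horses 3 and 5 and 9.30 in RAO-affected horse 4. Without slide 1 these correlations moved closer to 0, to 0.50 for TAB3 and to -0.56 for HK2.
BCHE was most alike to SLC16A1 (r = 0.74), a lactate transporter, RND3 (0.69), HRH1 (0.66), a histamine receptor, PRG4 (0.65), which encodes lubricin, and SELP (0.61), the endothelial selectin that binds leukocytes. All 5 had a positive r within control horses (0.67 to 0.88) and within RAO-affected horses (0.59 to 0.88). Without slide 1 they were 0.69, 0.86, 0.73, 0.66 and 0.55. Most opposed to BCHE were AIFM3 (-0.69), of the family of apoptosis-inducing factors, OAS1 (-0.66), an interferon-induced enzyme, and CYP11A1 (-0.61), which starts steroid synthesis. OAS1 and CYP11A1 were opposed more in control horses (-0.79 and -0.88) than in RAO-affected horses (-0.28 and -0.31), a difference that was not tested. On this measure CALCB held place 36 from the most opposed to BCHE, and BCHE place 121 from the most opposed to CALCB.

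**Figure D5:**
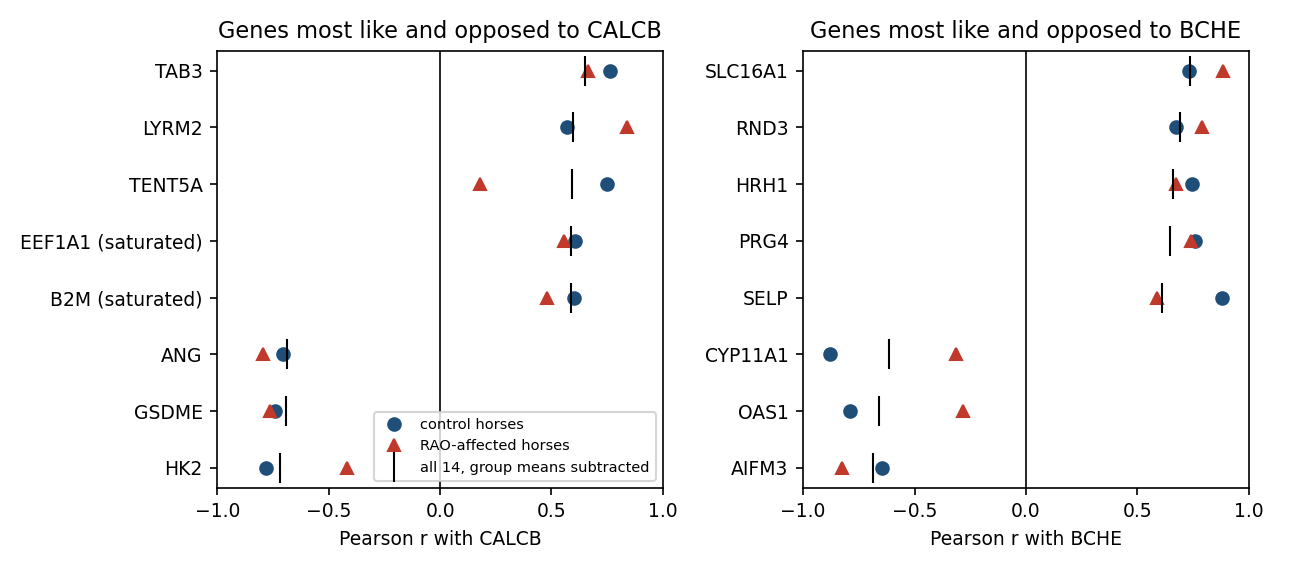
Pearson r (x axis) of CALCB (left) and BCHE (right) with the 5 most alike and the 3 most opposed named genes (y axis), within control horses (circles), within RAO-affected horses (triangles) and over all 14 horses with group means subtracted (black bars). For BCHE, SLC16A1 leads at 0.74 and AIFM3 is most opposed at -0.69.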

How the data were processed

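The authors deposited 1-colour Agilent scanner files of 14 arrays holding a background-subtracted intensity per spot (Feature Extraction 10.5.1.1 per the file headers, 9.1 per the submitters' processing notes), and a table of ratios, each a quantile-normalized value divided by the median of its probe. The deposited marks of spots well above background or saturated were used as given. Control spots and outlier spots were left out, and log2 intensities were quantile normalized in limma, as in the study's methods. Probes well above background on at least 4 arrays were fitted by group (lmFit and eBayes, two-sided, unpaired, Benjamini-Hochberg adjustment over 38727 probes). The methods name a paired test, but the pairs were not given in the sources used here. Per array, 32794 to 40020 probes were well above background, and the number of arrays limits the precision. The deposited ratios matched the scanner values on the log2 scale (lowest r 0.999).

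Accessions named 1231 probes through the RefSeq table of TB-T2T and 20 more through the study's list of primers, 2.87% of all. For genes with more than 1 probe, probes with a value on every array came first, and the brightest of these stood for the gene. The members, gene lists and alternatives were chosen with earlier results of these data known. Genes named are CALCB, BCHE, located genes of the lists, and for each member the 5 named genes with the highest and the 3 with the lowest correlation. Alternatives were 75th percentile scaling, normexp (offset 50), the ratio table, slide as a block, array weights, filters at none, 7 and 14 arrays, the methods' t-test unpaired, without slide 1, and without each horse. One listed marker is not reported here. The fit was tested on simulated data. Fits used limma 3.58.1 and data.table (version 1.17.8) in R 4.3.3. Relations used scipy 1.17.1 with pandas 2.3.3 and numpy 2.4.6, and plots matplotlib 3.10.9.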

Additional observations from a re-analysis of the deposited data

Results flagged for a closer look

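In 82 groups of 7 horses (41 probes of the named genes, each in both groups), 6 had 1 horse far from the others by Dixon's ratio, and chance flags about 1 in 20 groups. Neither CALCB nor BCHE was among them. For CALCA, RAO-affected horse 10 measured 3.06 on the single probe of one accession (others 5.07 to 5.72), a spot not well above background. RAO-affected horse 2 measured 8.66 on 1 probe of the other accession (others 4.58 to 5.98). Among the marker genes, CD14 measured 15.80 in control horse 5 (others 13.45 to 14.36). CD2 measured 15.23 in RAO-affected horse 4 (others 12.999 to 13.57). FCER1A measured 14.09 in control horse 7 (others 10.87 to 12.10), and SELE 15.81 in RAO-affected horse 12 (others 8.19 to 10.32).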

How the results depend on the processing

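The differences of CALCB and BCHE kept their direction under all 20 alternatives each, among which the filters and the t-test were not counted. With the filter at 14 arrays neither gene was tested, since neither was well above background on every array. The differences moved by less than the SD of the control horses, but the move of CALCB with normexp, to -0.95, was larger than the SD of the RAO-affected horses (0.44). The 570 probes at 2-fold and an unadjusted p under 0.05 (426 higher and 144 lower in RAO-affected horses) became 268 with normexp (235 and 33), 299 with a filter at 14 arrays (245 and 54) and 1018 without slide 1 (827 and 191). Leaving out 1 horse gave 381 to 1073 probes, the highest without RAO-affected horse 4 (691 and 382). The relation of CALCB and BCHE in RAO-affected horses turned positive with 75th percentile scaling (r = 0.25) and normexp (0.21), and ran from -0.43 to 0.28 with 1 horse left out. In control horses it ran from -0.64 to -0.02, lowest in size without horse 5. The exact permutation p was 0.171 to 0.981 over all settings in control and 0.406 to 0.982 in RAO-affected horses. Over all horses, with group means subtracted (chosen after seeing the data), r was -0.70 with slide removed and -0.53 to -0.018 with 1 horse left out, the latter without control horse 5. The BDNF difference ran from -0.10, without control horse 9, to 0.28, and had no value in 5 fits where its brightest probe fell under the filter. The causes of these changes were not tested. Low signal over background limits CALCB in RAO-affected horses. The CALCA and SELE values without 1 horse were added after seeing the data. No paired analysis was possible because the groups share no replicate numbers in the labels.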
